A study of Danio rerio with 6 samples.

Results

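Genes of intraflagellar transport and of the ciliary compartment were examined in the eyes of zebrafish larvae. The members were the genes whose symbol begins with ift or bbs followed by a digit, or with arl13, arl3, kif3a, kif3b, kif3c, kif17, cep290, rpgr, tulp1 or cc2d2a, or with 1 further prefix. This name rule found 29 of the 14781 genes in the table, and the rule itself uses no measured value. No row of the table began with kif17, tulp1 or cc2d2a, and rpgr was matched by rpgrip1l alone. The study compared 3 wild-type (WT) larvae with 3 larvae homozygous for the stl888 allele of samd7 (samd7-/-), all at 5 days post fertilization and all offspring of heterozygous parents. samd7 encodes a Polycomb-related protein of photoreceptors, and its role in keeping photoreceptor types distinct is the subject of the study. The eyes of 1 larva made 1 library, so larvae are the replicates, and the allele is carried by the whole animal. The labels do not describe its lesion. samd7 transcript itself rose, from 1777 ± 175 normalized counts in WT to 4413 ± 316 in samd7-/- (SD, n = 3; limma adjusted p = 0.00491). With the lesion undescribed, this level does not check the genotype labels.

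The light-sensing outer segment of a photoreceptor is a modified primary cilium. Its proteins are made in the cell body and pass through a narrow connecting cilium, so rods and cones depend on ciliary traffic throughout life. In intraflagellar transport (IFT), trains of IFT-B and IFT-A proteins are carried towards the tip by kinesin-2 and back by dynein-2. The BBSome is an adaptor for membrane proteins on these trains, ARL GTPases release lipid-anchored cargo inside the cilium, and the transition zone gates entry at its base.

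Each value below is a read count divided by the size factor of its library, called a normalized count. The 6 libraries held 23185755 to 26672265 reads assigned to genes. The rod marker list summed to 332792 to 446514 normalized counts in WT and 54523 to 111844 in samd7-/-. Of its 13 genes 10 fell with limma, where 0.259% of all tested genes did. All 13 were lower without overlap, where 6.39% of all tested genes were. The list of cone and shared photoreceptor markers summed to 2190480 to 3332710 and 3037010 to 3362580, so photoreceptor RNA was present in all 6 libraries. Of its 23 genes 1 rose and 3 fell with limma, where 0.301% of all tested genes were called. The genotypes did not overlap for 5 of the 23 that were higher in samd7-/-, where 6.66% of all tested genes were. Another 6 were lower without overlap, where 6.39% were. The cone arrestin gene arr3b rose (log2 1.44), while arr3a (log2 −6.88) and the green opsin genes opn1mw1 and opn1mw2 fell. opn1mw1 went from 221550 to 401000 normalized counts in WT to 0 to 1.96 in samd7-/-. Skin and cornea markers summed to 371128 to 411864 in WT and 322956 to 353417 in samd7-/-, with 0 of 18 tested genes called by limma. Lens markers summed to 2075860 to 3496010 and 1575530 to 2389740, and all 20 tested had negative log2 fold changes (median −0.52) with 0 called. Muscle markers (38126 to 102599 and 27622 to 72109) and blood markers (3407 to 11132 and 6025 to 13677) overlapped between the genotypes. The part of these shifts in the ciliary values was not tested.

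Of the ciliary members, arl13a alone passed the test between the genotypes. Of the 29 members, 27 had values high enough to be tested (at least 10 in at least 3 libraries), and ift122 and ift27 were listed at 0 in all 6 libraries. Here and below, a listed 0 does not show that the transcript is absent, and its cause was not tested. With limma and Benjamini-Hochberg adjustment over all 11959 genes tested, 0 members rose and 1 fell, where 0.301% of all tested genes were called (0.0418% higher and 0.259% lower in samd7-/-). DESeq2 and edgeR called 0.679% and 0.283% of the genes they tested, and among the members DESeq2 called arl13a alone and edgeR 0. At an unadjusted p under 0.05 stood 3 of the 27, arl13a, arl3l2 and cep290, against 6.33% of all tested genes. Of these, 1 was higher, where 3.08% of all tested genes were, and 2 were lower, where 3.25% were. The genotypes did not overlap for 4 of the 27, which were lower in samd7-/- for arl13a, ift80 and bbs10 and higher for kif3a. The share over all tested genes was 13.1%, with 6.39% lower and 6.66% higher. The log2 fold changes (mutant over WT, computed on log2(value + 1)) ran from −0.70 to 0.37 with a median of 0.03, beside a median of 0.00 over all tested genes. Whole eyes were measured, so fewer cells of a type and less RNA per cell cannot be told apart in any of these values.

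The intervals limit how large a missed difference could be. The 95% interval of the log2 fold change lay within −1 and 1 for 25 of the 27 members and within −0.5 and 0.5 for 11. The exceptions to the wider limits were ift22, whose interval ran from −1.02 to 0.22, and rpgrip1l, from −0.55 to 1.08. An absolute log2 fold change of at least 0.5 was seen for 1 member, arl13a, while 11.6% of all tested genes had one. At least 0.3 was seen for 5 members, against 27.3% of all tested genes, and under 0.15 for 14, against 45.9%. The median standard error (SE) was 0.16 over the members and 0.20 over all tested genes, and the median of the members' mean counts was 608 against 361.

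**Figure D1:**
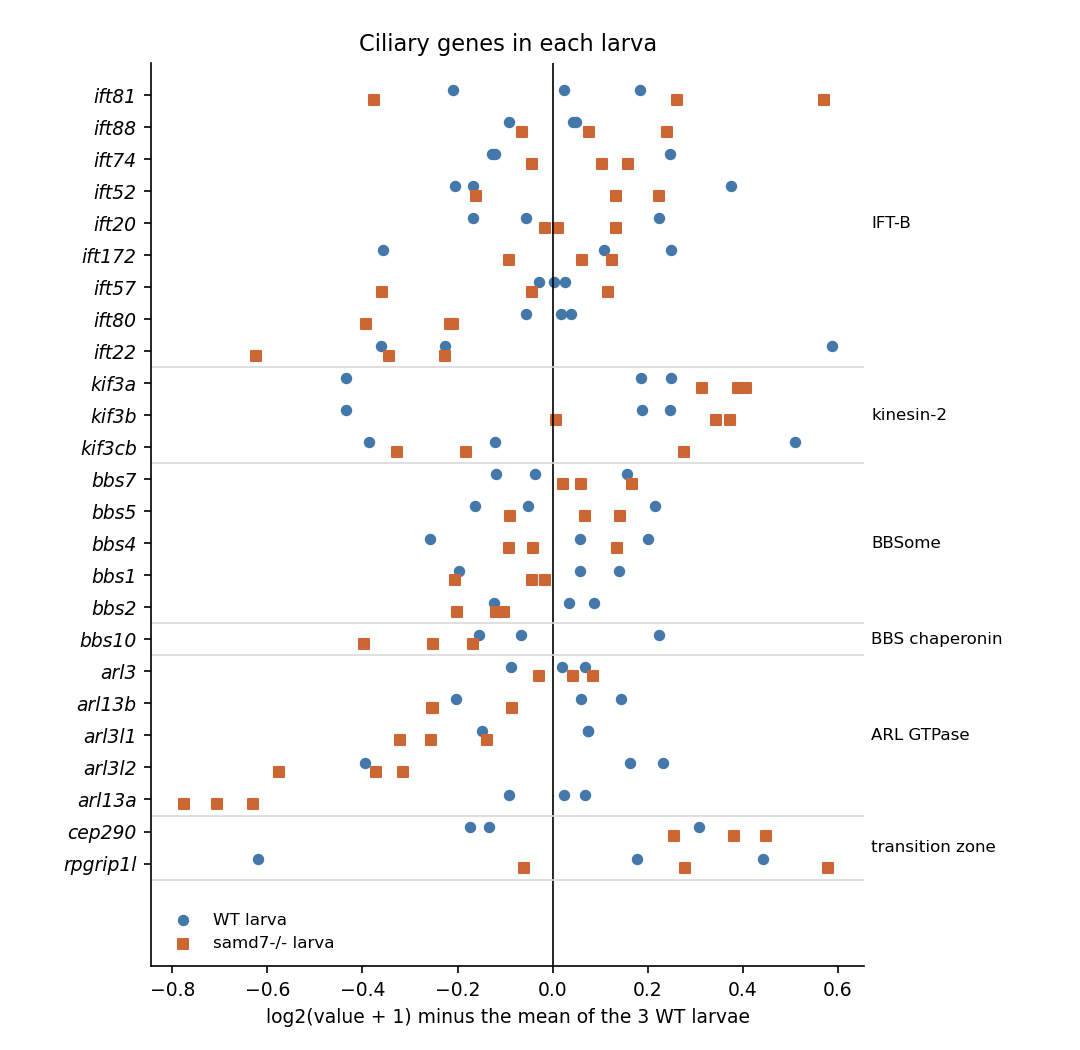
Each point is the log2(value + 1) of 1 gene in 1 larva minus the mean of the 3 WT larvae, for 25 of the tested members grouped by role, with WT as circles and samd7-/- as squares. For arl13a the 3 samd7-/- larvae lie between −0.63 and −0.78, apart from WT, while for 21 of the members drawn the genotypes overlap.

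The ARL GTPases held the called member. arl13a, a relative of the ciliary membrane GTPase gene arl13b, stood at 4046, 4167 and 3729 normalized counts in the 3 WT larvae and at 2321, 2438 and 2569 in samd7-/-. All 3 mutant larvae were below all 3 WT larvae, and the larvae of each genotype lay close together. Its mean fell from 3980 ± 226 to 2443 ± 124 (SD, n = 3), a log2 fold change of −0.70 (SE 0.10, 95% interval −0.94 to −0.47, adjusted p = 0.0389 with limma). These values rest on 12048 reads in WT and 7399 in samd7-/-. By p-value arl13a was the last of the 36 called genes, and 0 called genes had a smaller absolute fold change. In the authors' deposited table its log2 fold change was −0.70 with an adjusted p of 1.9e-05. The call was lost with edgeR (adjusted p = 0.0682). It was also lost on removing any single library. The limma adjusted p was 0.108, 0.199 and 0.119 when WT 1, 2 or 3 was removed, and 0.242, 0.166 and 0.168 when mutant 1, 2 or 3 was. The log2 fold change stayed between −0.75 and −0.67 in those fits, each of which has fewer larvae. Over all genes those fits called 9, 6 and 6 without WT 1, 2 or 3. They called 20, 27 and 20 without mutant 1, 2 or 3, where the full fit called 36.

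**Figure D2:**
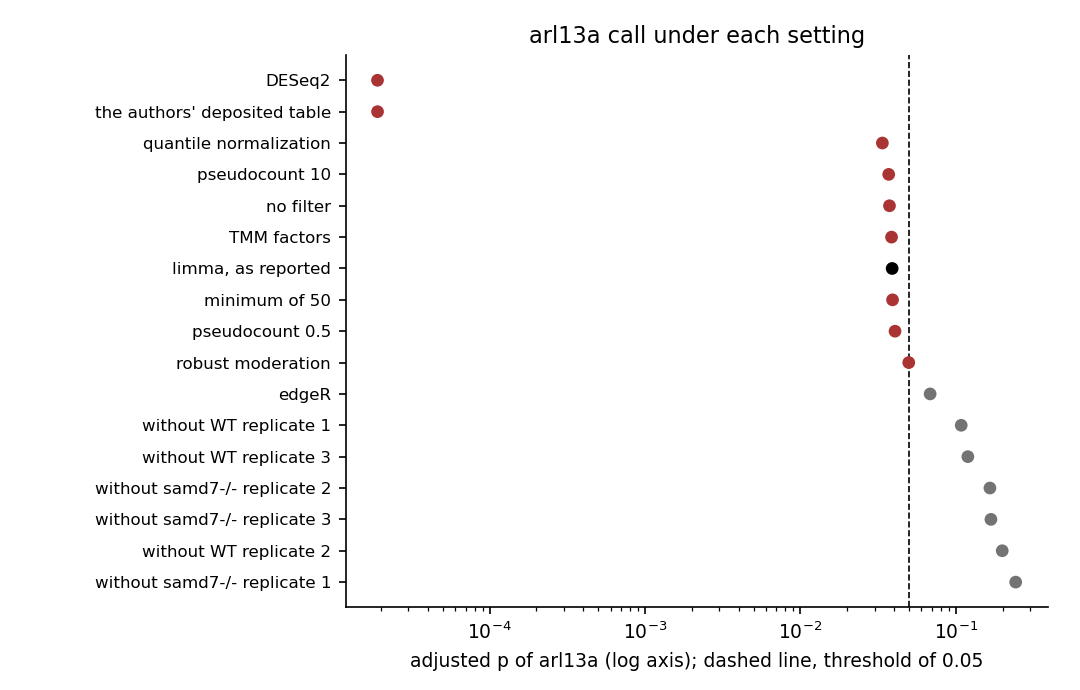
Adjusted p-value of arl13a (x axis, logarithmic) under the reported fit and other ways of processing the data (y axis), with the reported limma fit in black, settings past the threshold of 0.05 in red and the others in grey. The reported value of 0.0389 lies just inside the dashed threshold, and every setting with a library left out lies outside it, between 0.108 and 0.242. The limma fit with the replicate number as a block, which also lost the call (adjusted p = 0.143), is not drawn.

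In the same mutant eyes rod and some cone genes were called, and gnat2 was taken as a cone gene that was not. rho, the rod opsin gene, fell from 298809 ± 46965 to 67122 ± 27006 (log2 −2.24, limma adjusted p = 0.0362), while gnat2, the cone transducin gene, stood at 102203 ± 8958 and 121659 ± 14936 (log2 0.25, adjusted p = 0.82). Set against gnat2, arl13a had 3.63, 4.11 and 3.98 reads per 100 gnat2 reads in WT and 1.74, 2.33 and 2.03 in samd7-/-, again without overlap (exact permutation p = 0.1, two-sided, the lowest value possible with 3 larvae per genotype). This ratio holds for gnat2 alone, since the called cone genes moved either way. Per 100 rho reads it had 1.35 ± 0.165 in WT and 4.23 ± 2.21 in samd7-/- (SD, n = 3, exact permutation p = 0.1). Because rho fell further than arl13a (log2 −2.24 against −0.70), the ratio to rho had to rise. Both ratios reuse the fall for which arl13a was chosen here, so they are no separate support for it. Which cells of the eye hold arl13a transcript was not measured.

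arl13b encodes a small GTPase of the ciliary membrane that activates arl3 and whose loss causes Joubert syndrome in humans. It stood at 962, 908 and 756 in WT and at 731, 821 and 730 in samd7-/-. One mutant larva lay above the lowest WT larva. Its log2 fold change was −0.20 (SE 0.14, 95% interval −0.51 to 0.12, limma adjusted p = 0.835). arl13a reads per arl13b read numbered 4.58 ± 0.36 in WT and 3.22 ± 0.28 in samd7-/- (SD, n = 3), with no overlap between the genotypes (exact permutation p = 0.1, two-sided, the smallest possible). This ratio, too, reuses the fall for which arl13a was chosen and is no separate support for it.

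arl3 and its relatives arl3l1 and arl3l2 belong to the GTPase family that releases lipid-anchored proteins from their carriers in the cilium. arl3 stood at 2624, 2538 and 2354 in WT and at 2578, 2454 and 2653 in samd7-/-, values that overlapped (log2 0.03, SE 0.10, 95% interval −0.20 to 0.27). arl3l1 stood at 15079, 15071 and 12911 in WT and at 11982, 11461 and 13008 in samd7-/-. arl3l2 stood at 10017, 9541 and 6479 in WT and at 6853, 6591 and 5717 in samd7-/-. For both, WT 3 was the lowest WT larva and lay within the mutant range. arl3l1 had a log2 fold change of −0.24 (SE 0.12, limma adjusted p = 0.791) and arl3l2 one of −0.42 (SE 0.18, unadjusted p = 0.0424, adjusted p = 0.779). Without WT 3 the value of arl3l2 was −0.62 (adjusted p = 0.313), and without WT 1 it was −0.30.

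Among the reads of these 3 genes, arl3 took 9.88 ± 0.82% of the total in WT and 12.1 ± 0.238% in samd7-/-, without overlap (exact permutation p = 0.1, the smallest possible, 2-sided). As arl3 itself changed little (log2 0.03), its larger share restates the lower counts of arl3l1 and arl3l2. RefSeq lists this arl3 under the symbol arl3b. The shares of arl3l1 (56.4 ± 2.61% and 57.6 ± 2.84%, exact permutation p = 0.5) and arl3l2 (33.7 ± 3.41% and 30.3 ± 3.08%, exact permutation p = 0.3) overlapped. Summed normalized counts of the 3 genes were 25538 ± 3298 and 21099 ± 514 (exact permutation p = 0.1). The separation of these sums was narrow, with WT 3 at 21744 and the highest mutant larva at 21412. These shares are not corrected for transcript length, and reads of similar copies may be divided unevenly among them. As a group, the 5 ARL genes had 4 negative log2 fold changes and a median of −0.24, with 1 that fell, 0 that rose and 4 that did not pass.

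**Figure D3:**
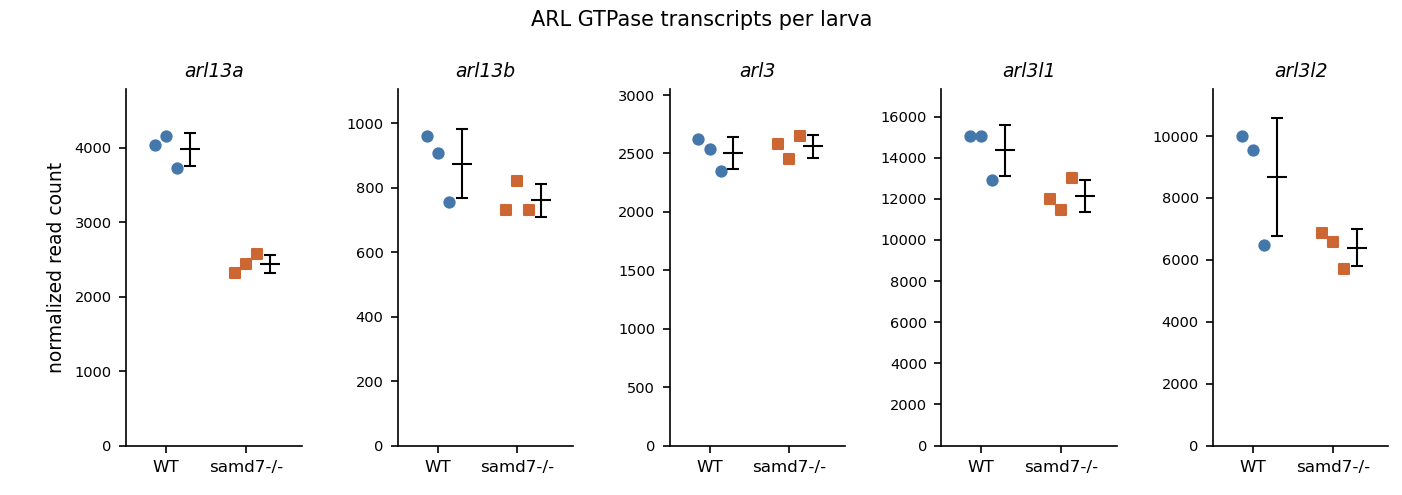
Normalized read counts (y axis, from 0) of arl13a, arl13b, arl3, arl3l1 and arl3l2 in each larva, with WT as circles and samd7-/- as squares; bars show mean ± SD of 3 larvae. The genotypes separate for arl13a, at 3729 to 4167 against 2321 to 2569, and overlap for the other 4 genes.

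None of the 9 tested IFT-B members passed the limma test, and 0 of them had an unadjusted p under 0.05. Over all tested genes 0.301% passed and 6.33% had such a p. A count of 0 among 9 genes is near those shares and is no result about this group. IFT-B forms the part of the train that moves outward with kinesin-2. ift80, a subunit mutated in human skeletal ciliopathies, stood at 640, 682 and 672 in WT and at 574, 572 and 506 in samd7-/-. All 3 mutants were below all 3 WT larvae, by a small step. Its log2 fold change was −0.27 (SE 0.12, 95% interval −0.56 to 0.01, adjusted p = 0.781). ift22, a Rab-like GTPase of the complex, had the widest difference of the group at −0.40 (SE 0.27, adjusted p = 0.835). Its WT larvae had 348, 198 and 180 normalized counts and its mutants 198, 150 and 182. WT 1 alone was high, and without it the difference was −0.11.

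ift20, the subunit that also sits at the Golgi, stood at 858, 654 and 706 in WT and at 726, 740 and 806 in samd7-/-, with the highest and the lowest value both in WT (log2 0.04, SE 0.14). The subunits ift74 and ift81, which bind tubulin cargo together, had log2 fold changes of 0.07 and 0.15. ift88, which zebrafish photoreceptors need to keep their outer segments, averaged 265 ± 14.6 in WT against 282 ± 30.0 in mutants, a log2 fold change of 0.08 (95% interval −0.28 to 0.45). The other subunits ift52, ift57 and ift172 lay at 0.07, −0.09 and 0.03. Over the 9 genes the median was 0.04, with 6 positive and 3 negative values. ift57 was the 1 member on the chromosome that carries samd7 in RefSeq's GRCz12tu assembly, and its genotypes overlapped. ift27, a further Rab-like subunit of IFT-B, and ift122, the 1 IFT-A member, were those listed at 0, so no IFT-A gene of the name rule could be tested. Outside the rule, the IFT-A genes wdr35 and ttc21b lay at −0.01 (SE 0.17) and 0.12 (SE 0.20), with overlapping genotypes.

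**Figure D4:**
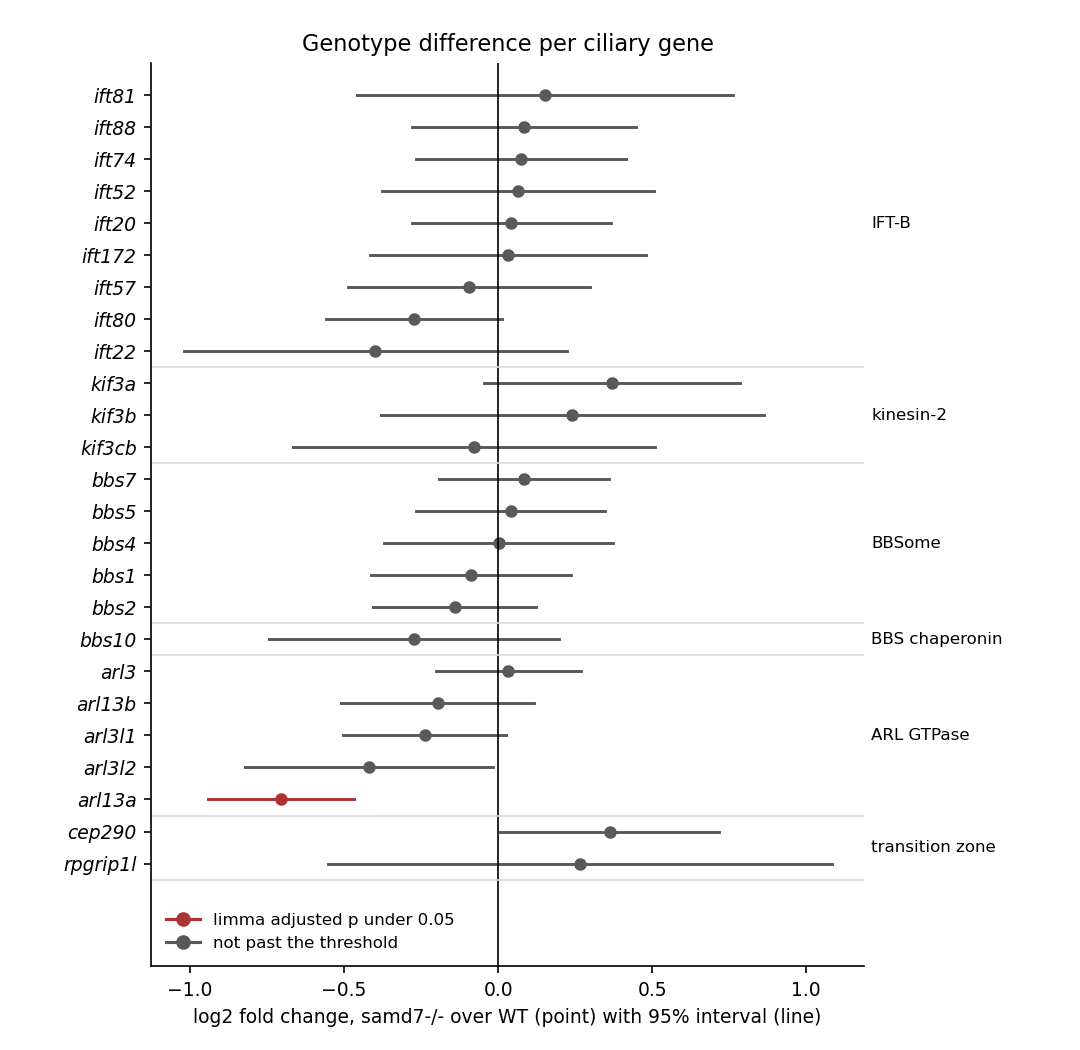
Points are log2 fold changes, samd7-/- over WT, of 25 tested members by role, and lines are their 95% intervals from limma; red marks an adjusted p under 0.05. arl13a lies at −0.70, apart from 0, and the IFT-B and BBSome genes drawn sit within −0.40 and 0.15.

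The kinesin-2 motors carry IFT trains from the base of the cilium to its tip. kif3a, a motor subunit, stood at 1164, 1871 and 1793 in WT and at 1958, 2089 and 2062 in samd7-/-. The 3 mutants were above all WT larvae, and WT 1 was far below the other 2. The log2 fold change was 0.37 (SE 0.18, 95% interval −0.05 to 0.79, limma adjusted p = 0.791), and without WT 1 it was 0.15. kif3b, the usual partner of kif3a, stood at 57.4, 88.9 and 92.7 in WT and at 101, 99.1 and 78.2 in samd7-/-, with overlap (log2 0.24, SE 0.27). WT 1 was the lowest here too, and without it the value was 0.024. kif3cb, an alternative partner, stood at 340, 634 and 409 in WT and at 355, 540 and 392 in samd7-/-. In both genotypes larva 2 was the highest, and the log2 fold change was −0.08 (SE 0.26).

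Among partners of these motors outside the name rule, kifap3b encodes a non-motor subunit that joins kif3a and kif3b. It stood at 749, 1441 and 1128 in WT and at 1593, 1714 and 1622 in samd7-/-. WT 1 was again the lowest, and the genotypes did not overlap (log2 0.62, SE 0.22, unadjusted p = 0.0205, limma adjusted p = 0.67). Without WT 1 its value was 0.36. Its copy kifap3a overlapped between genotypes, at 457 ± 73.6 and 512 ± 27.9 (log2 0.18). Over the 6 tested genes listed as kinesin-2 and dynein-2 partners, 0 passed with limma, where 0.301% of all tested genes did. Of these, 1, kifap3b, had an unadjusted p under 0.05, where 6.33% of all tested genes did. The 6 include kif7, which is a subunit of neither motor. Dynein-2 powers the return journey. Its genes dync2h1, dync2li1 and wdr34 had log2 fold changes of −0.05 (SE 0.34), 0.29 (SE 0.22) and −0.14 (SE 0.22), with overlapping genotypes.

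**Figure D5:**
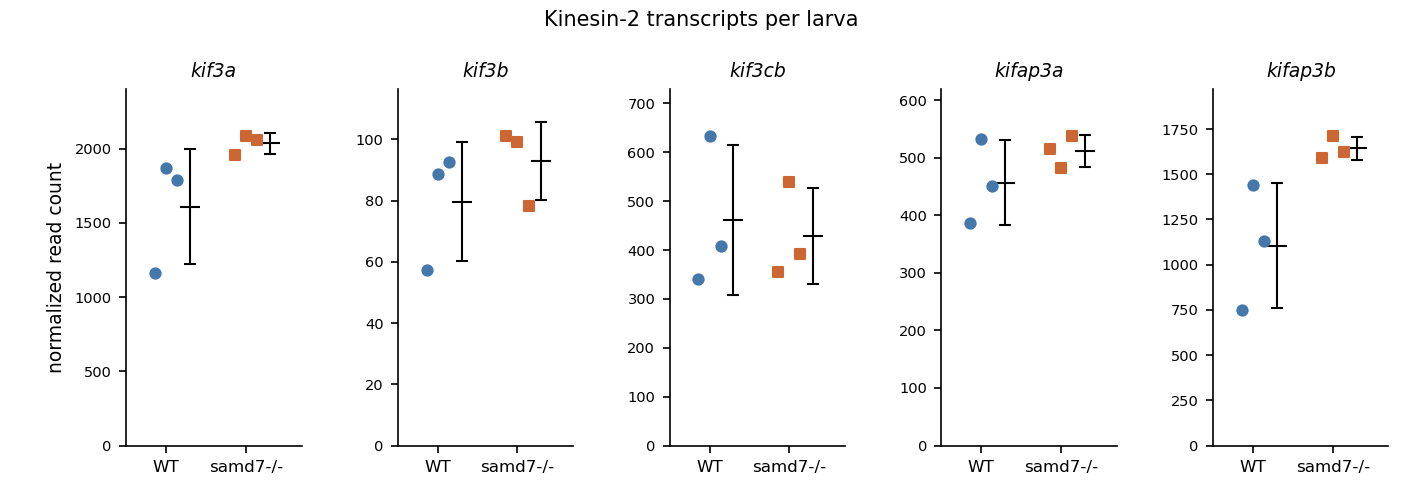
Normalized read counts (y axis, from 0) of kif3a, kif3b and kif3cb and of the partners kifap3a and kifap3b in each larva, with WT as circles and samd7-/- as squares; bars show mean ± SD of 3 larvae. For kif3a and kifap3b the mutants lie above WT, whose first larva is the lowest at 1164 and 749.

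None of the BBSome genes passed the limma test or had an unadjusted p under 0.05, where 0.301% and 6.33% of all tested genes did. bbs1, bbs2, bbs4, bbs5 and bbs7 encode subunits of the complex, whose loss causes Bardet-Biedl syndrome with retinal degeneration in humans. All 5 had log2 fold changes between −0.14 and 0.08, and each 95% interval lay within −0.5 and 0.5. bbs5 stood at 1912, 1590 and 1471 in WT and 1726, 1549 and 1819 in samd7-/-, with overlap (log2 0.04, SE 0.13). bbs2 had the largest difference, from 1174, 1014 and 1131 in WT to 1028, 1016 and 960 in samd7-/- (log2 −0.14, SE 0.12, limma adjusted p = 0.853). bbs4 had a log2 fold change of 0.00, the smallest of all members.

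bbs10, a chaperonin-like protein that helps the BBSome to assemble, was lower in every mutant larva by a narrow margin. It stood at 161, 123 and 131 in WT and at 104, 115 and 122 in samd7-/- (log2 −0.27, SE 0.21, limma adjusted p = 0.846). Its WT values rest on 111 to 168 reads per library and the mutant values on 106 to 125, and counting alone gives a coefficient of variation of 8.84% at that depth.

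The transition zone holds the gate at the base of the cilium, and cep290, which encodes one of its scaffold proteins, is mutated in human Leber congenital amaurosis. cep290 stood at 780, 1090 and 802 in WT and at 1201, 1051 and 1147 in samd7-/-. WT 2 lay within the mutant range and the other WT larvae below it. The log2 fold change was 0.36 (SE 0.16, 95% interval 0.01 to 0.72, unadjusted p = 0.0471, limma adjusted p = 0.779). It was 0.52 without WT 2 and 0.28 without WT 1, so its size depended on which WT larva was kept.

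rpgrip1l, a further transition zone scaffold, stood at 31.5, 55.5 and 67.0 in WT and at 73.7, 59.7 and 46.9 in samd7-/-. The genotypes overlapped, and 33 reads in 1 library was the lowest number behind any tested member. Its log2 fold change was 0.27 (limma adjusted p = 0.904), and its SE of 0.36 was the highest of the tested members. Its value rested on which larvae were kept, and without WT 1 the fold change was −0.044. Counting alone gives a coefficient of variation of 13.3%, where the larvae had 35.2% in WT and 22.3% in samd7-/-.

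The median deviation of the 27 members from the WT mean was 0.03, 0.06 and −0.09 in WT and 0.06, −0.03 and −0.09 in samd7-/-, on the log2 scale. The ranges of the genotypes overlapped. WT 1 held the highest value of 11 members and the lowest of 7, where the other larvae held the highest of 1 to 6 and the lowest of 2 to 6. All members together took 0.16 to 0.177% of reads in WT and 0.156 to 0.165% in samd7-/-.

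Further ciliary genes that the name rule does not cover were not called either. Of 65 such genes in the table, 62 were tested, and 0 passed with limma (0.301% of all tested genes), edgeR or DESeq2. At an unadjusted p under 0.05 stood 3, namely kifap3b, rab11a and arl2bp, against 6.33% of all tested genes. The genotypes did not overlap for 2 that were higher in samd7-/-, kifap3b and myo7aa, where 6.66% of all tested genes were. They did not overlap either for 4 that were lower, rab11a, arl2bp, cep89 and poc1b, where 6.39% were. The log2 fold changes of the 62 ran from −0.59 to 0.73 with a median of −0.01. In the list of IFT and BBSome partners, 0 of 11 tested genes passed with limma, beside the same 0.301%. bbip1, a small BBSome subunit, lay at −0.13 and lztfl1, a regulator of BBSome entry, at −0.23. Among IFT-B genes of this list, hspb11 had the lowest value, −0.57 (SE 0.54, 95% interval −1.81 to 0.66). traf3ip1, ttc26, cluap1 and flr lay at 0.24, 0.23, −0.04 and 0.05. The genotypes overlapped for each of these IFT-B genes. ttc8, a BBSome subunit, and trim32 were listed at 0 in every library.

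Of 16 tested genes for lipid-anchored cargo and membrane traffic, 0 passed with limma, where 0.301% of all tested genes did. unc119b and pde6d, whose products carry the lipid-anchored cargo that arl3 releases, lay at −0.09 and 0.04. rab11a, a GTPase of recycling endosomes, stood at 666, 851 and 1117 in WT and at 577, 647 and 498 in samd7-/-. All mutants were below all WT larvae, which themselves spread widely (log2 −0.59, SE 0.20, adjusted p = 0.663). arl2bp, whose product binds arl3 and arl2, stood at 485, 359 and 349 in WT and at 279, 304 and 275 in samd7-/-, also without overlap (log2 −0.46, SE 0.17, adjusted p = 0.739). rab28 was listed at 0.

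None of the 18 tested transition zone and basal body genes passed with limma, edgeR or DESeq2, and 0 had an unadjusted p under 0.05. The shares over all tested genes were 0.301% with limma and 6.33% at that p. tmem237b, a membrane protein of the transition zone, lay at −0.05 (SE 0.12). cep41, which had the smallest p of the list, stood at 18.2 ± 8.34 and 29.4 ± 6.98 (log2 0.73, SE 0.44, limma adjusted p = 0.82). Of 11 axoneme and ciliopathy genes, 0 passed with any of these tools and 0 had an unadjusted p under 0.05, beside the same shares. mak, a kinase of the photoreceptor axoneme, lay at 0.00, and myo7aa, a myosin mutated in Usher syndrome, stood at 192 ± 57.3 and 275 ± 27.8 without overlap (log2 0.56, SE 0.25, limma adjusted p = 0.779), and without WT 1 lay at 0.29.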

How the data were processed

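Eyes of 6 larvae were sequenced from 10 ng of total RNA each with a SMARTer Ultra Low kit (12 cycles of cDNA and 12 of library amplification, 150 bp pairs), per the labels' protocols. The submitters' processing notes name the build danRer10 and, in no stated order, DESeq2 1.34.0, R 4.1.3, HTSeq 0.9.1, STAR 2.7.2b and Trim Galore 0.6.1; no source used here names the annotation. The deposited signal of each gene is its count over the size factor of the library, judged from the values. For each gene the authors deposited, too, their log2 fold change with its adjusted p-value, per the file headers.

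The main test was limma 3.58.1 (R 4.3.3, trend) on log2(value + 1), 2-sided, for genes with at least 10 in at least 3 libraries, adjusted by Benjamini-Hochberg at 0.05. Such fold changes understate those of low genes. Whole reads recovered from the values (100% whole within 0.001) went into edgeR 4.0.16 and DESeq2 1.42.0. For samd7-/- 2 the value of 1 read, 1.01, is so near 1 that the recovery rests on the multiples alone. The limma fit was tested on simulated counts with equal dispersion for every gene and changes larger than that of arl13a. That test does not bear on the arl13a call.

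The members and lists were chosen with earlier results of these data known. Every member was counted, and 2 tested members are not reported here one by one. From other lists the genes past the threshold were named, or otherwise those with the highest mean and the smallest p. Others were chosen after their values were seen. These were arl2bp, pde6d, kifap3a, the dynein-2 genes, foxj1a, rfx2, rfx3, the called cone genes and the genes listed at 0. So were cep89, poc1b, wdr35, ttc21b, hspb11, traf3ip1, ttc26, cluap1, flr, kif7 and rfxank. In the 5 ciliary lists outside the name rule, 6 symbols were matched through RefSeq synonyms. Nothing in the labels says that larvae came from separate clutches. The kit does not mark strand: 13 of the 29 members overlap another gene in RefSeq's GRCz12tu assembly, among them ift80, kif3a and cep290 but not arl13a, and their reads may be mixed. Counts of related copies are likewise uncertain. Intervals on reads cover counting error only. Values are not corrected for transcript length, so they do not rank genes against each other.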

Additional observations from a re-analysis of the deposited data

How the results depend on the processing

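Of 17 alternatives, 9 kept the arl13a call and 8 lost it, and in 0 of them was any other member called. The call of rho was likewise kept in 9 and lost in 8. The alternatives are not independent checks. DESeq2 and the authors' deposited table gave arl13a the same adjusted p (1.9e-05), and several others are the same limma fit with 1 setting changed. The number of members called, 1, was 0 with edgeR, 0 with the replicate number as a block (arl13a adjusted p = 0.143) and 0 to 0 with each library left out in turn. The members' median log2 fold change of 0.03 stayed between −0.04 and 0.03. The count of other ciliary genes, 0, was 0 in all 17. Replicate numbers name no shared clutch or day in the labels, and the deviations of same-numbered larvae correlated at 0.0286, 0.183 and −0.0024, so the block is not a pairing of the design. It left 33 calls among all genes where the fit without it made 36.

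The sign was the same in every alternative for 16 of the 27 tested members, arl13a among them. For the other 11 it turned in at least 1, as it did for mak and bbip1, which are not members. bbs4 was −0.0075 with DESeq2 and in the authors' deposited table, −0.0021 with TMM factors, −0.011 with edgeR and −0.00598 with quantile normalization, and mak was −0.012 with DESeq2 and in the authors' deposited table, −0.00031 with TMM factors and −0.015 with edgeR; the cause was not tested. With a library left out, bbs4 ran from −0.13 to 0.10, mak from −0.12 to 0.15, ift52 from −0.038 to 0.25, ift172 from −0.15 to 0.16 and bbs5 from −0.041 to 0.15. In the same fits ift20 ran from −0.041 to 0.15, kif3cb from −0.27 to 0.18, arl3 from −0.012 to 0.067, ift81 from −0.057 to 0.42, ift57 from −0.20 to 0.037, rpgrip1l from −0.044 to 0.49 and bbip1 from −0.25 to 0.019. TMM factors moved the median of all genes by under 0.01. Counting alone gives coefficients of variation of 13.3% for rpgrip1l and 10.7% for kif3b, under the 35.2% and 24.3% among their WT larvae.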

Other observations

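Of 42 listed genes of motile cilia in the table, 19 were tested and 0 passed with limma, edgeR or DESeq2, with 0 at an unadjusted p under 0.05. foxj1a, the master factor of motile cilia, stood at 37.3, 3.33 and 38.5 normalized counts in WT and at 18.7, 9.10 and 28.4 in samd7-/-. Among the 19 tested genes 15 had negative and 4 had positive log2 fold changes, with a median of −0.06. The summed list lay between 4302 and 5011 in WT and between 4283 and 4733 in samd7-/-, ranges that overlap. Most of this sum came from spag1a alone in every library, so the sum says little about the other listed genes. spag1a, which serves dynein assembly, stood at 2750 ± 128 and 2891 ± 76.1 (SD, n = 3). Its copy spag1b stood at 28.7, 26.7 and 30.3 in WT and at 28.5, 6.07 and 0 in samd7-/- (limma adjusted p = 0.781), with the mutant larvae far apart.

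RFX factors bind the promoters of ciliary genes. The tested genes of this list were rfx1a, rfx2, rfx3 and rfxank, the last of which is not itself an RFX factor. Of these 4, 0 passed with limma, edgeR or DESeq2, with 0 at an unadjusted p under 0.05. Over all tested genes 0.301% passed with limma and 6.33% had such a p. rfx1a stood at 164, 319 and 279 in WT and at 292, 343 and 342 in samd7-/- (log2 0.41, SE 0.25, limma adjusted p = 0.82), and without WT 1 the value was 0.12. WT 1 was again the lowest larva, as for kif3a and kifap3b. rfx2 and rfx3, which act in ciliogenesis, lay at −0.03 and −0.07.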
